A study of Mus musculus with 8 samples.

Results

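The variable (V) segments of the T cell receptor alpha and beta chains were examined in cultured mouse regulatory T cells (Tregs). Members were all genes of the deposited table whose symbol starts with Trav or Trbv followed by a digit. The rule takes 51 of 19703 genes, 30 Trav segments and 21 Trbv segments, and uses no measured value.

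A T cell receptor chain is made by joining 1 V segment to a joining segment, with a diversity segment between them in the beta chain, and splicing the result to a constant region. Each T cell clone therefore transcribes mainly the V segments it has rearranged, and the mix of V segments in a population follows which clones it holds and how much receptor RNA each makes. In bulk RNA, fewer cells using a segment and less receptor RNA per cell cannot be told apart. The mouse Trav locus holds large duplicated blocks with near-identical segments, whereas most Trbv segments are single copies. Of the segments described here, Trav1 is the segment of the invariant alpha chain of MAIT cells, and Trav11 and its copy Trav11d are those of the invariant alpha chain of NKT cells.

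The cells were Tregs, titled WT in all samples, sorted from FOXP3-GFP reporter mice (strain label Foxp3-GFP), CD4 T cells in which the lineage factor FOXP3 is marked by GFP. All cultures received beads coated with antibodies to CD3 and CD28, which engage the receptor complex and a costimulator, and a Th17-polarizing mix of IL6, IL23 and IL1B. One group had no further addition and the other also received FcCD70, a soluble form of the CD27 ligand CD70. RNA was sequenced on day 6 to ask how CD27 signalling alters transcription in Tregs under these conditions. The labels name 8 samples, of which 7 are columns of the table used here: untreated libraries 1, 2, 3 and 4 and FcCD70 libraries 1, 2 and 3. The sample titled FcCD70 and numbered 4 was not analysed here. Groups follow the titles. The treatment field gives the opposite treatment in all 8 samples, so every direction holds only if the titles are right. Neither the age or sex of the mice nor what a replicate number stands for is given in the labels. Nothing there says whether libraries came from separate mice or cultures, so p-values measure only a spread between samples that could be technical.

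The table held between 18159685 and 23527899 reads per library. Values are normalized read counts, the authors' read counts divided by 1 size factor per library. The Treg markers Foxp3, Il2ra, Ikzf2, Ctla4 and Cd4 were read in every library, and FcCD70 library 2 had the lowest Foxp3 level (2788, against 4811 to 6585 in the others). That library also had the highest levels of the beta constant regions Trbc1 (12919, against 7778 to 9267) and Trbc2 (20067, against 12054 to 15259). Among markers of other cells, the CD8 chains Cd8a and Cd8b1 lay at 0 to 13.1 and 110 to 195. Ncr1 of NK cells was at 0 in all 7 libraries and the delta constant region Trdc at 37.3 to 70.8. Eomes lay at 6.05 to 13.2 in untreated and 15.0 to 27.0 in FcCD70 libraries (limma, unadjusted p = 0.148, adjusted p = 0.9998). Among genes with a mean of 10 to 50, 2.58% were likewise above every untreated library in all FcCD70 libraries. The summed gamma delta list, Trdc included (4 of 6 genes with a row), lay at 44.4 to 71.4. The summed NK list (3 of 4 genes with a row) reached at most 7.94 and the summed myeloid list (3 of 5) at most 4.49. Of B cell genes, the heavy chain gene Ighm was at 32628 to 36720, whereas the light chain gene Igkc was at 0 to 12.2.

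The V exons below are those of segments named in the results that follow. They were read from the GENCODE M21 transcripts (build GRCm38), 5′ to 3′ on the strand of the gene, without the leader exon. Each is given from its 3′ end backwards to the length shared within its set, and to at most 300 bases. The first is Trbv3, the most read Trbv segment, at chr6:41048529-41048828 on the plus strand of chromosome 6.
Trbv3: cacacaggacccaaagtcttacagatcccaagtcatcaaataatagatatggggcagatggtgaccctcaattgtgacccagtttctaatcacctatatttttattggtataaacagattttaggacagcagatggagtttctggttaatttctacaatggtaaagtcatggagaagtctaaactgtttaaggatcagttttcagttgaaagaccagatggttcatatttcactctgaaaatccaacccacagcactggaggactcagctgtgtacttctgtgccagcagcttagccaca

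The pair Trbv12-1 (chr6:41113775-41114067, plus strand) and Trbv12-2 (chr6:41119072-41119364, plus strand) had the largest positive differences in beta share between the groups. Their stretches of 293 bases are 89.1% identical, and capitals mark the 32 positions at which they differ.
Trbv12-1: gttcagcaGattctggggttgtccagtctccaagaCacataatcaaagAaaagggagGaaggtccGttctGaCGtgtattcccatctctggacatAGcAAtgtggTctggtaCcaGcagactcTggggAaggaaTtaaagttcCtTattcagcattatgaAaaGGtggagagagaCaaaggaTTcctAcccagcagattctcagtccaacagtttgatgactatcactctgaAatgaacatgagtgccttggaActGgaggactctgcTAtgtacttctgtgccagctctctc
Trbv12-2: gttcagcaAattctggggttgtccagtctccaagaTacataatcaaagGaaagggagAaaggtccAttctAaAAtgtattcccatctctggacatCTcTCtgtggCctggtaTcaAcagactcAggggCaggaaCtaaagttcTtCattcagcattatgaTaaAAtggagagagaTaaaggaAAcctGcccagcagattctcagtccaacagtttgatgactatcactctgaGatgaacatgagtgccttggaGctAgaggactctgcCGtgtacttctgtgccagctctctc

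The Trbv13 subgroup alternates with Trbv12 along the locus and has 3 members: Trbv13-1 (chr6:41116178-41116468), Trbv13-2 (chr6:41121542-41121832) and Trbv13-3 (chr6:41130295-41130585), all on the plus strand. Capitals mark the 49 of 291 positions at which the 3 exons are not all alike. Trbv13-2 and Trbv13-3 are 91.8% identical, Trbv13-1 and Trbv13-2 88.7%, and Trbv13-1 and Trbv13-3 85.9%.
Trbv13-1: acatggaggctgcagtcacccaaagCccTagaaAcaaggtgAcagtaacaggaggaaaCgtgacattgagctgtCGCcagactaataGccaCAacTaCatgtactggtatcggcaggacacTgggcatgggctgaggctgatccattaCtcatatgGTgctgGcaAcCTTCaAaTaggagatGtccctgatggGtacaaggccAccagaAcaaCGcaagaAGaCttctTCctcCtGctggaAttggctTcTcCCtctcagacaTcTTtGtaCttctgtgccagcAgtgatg
Trbv13-2: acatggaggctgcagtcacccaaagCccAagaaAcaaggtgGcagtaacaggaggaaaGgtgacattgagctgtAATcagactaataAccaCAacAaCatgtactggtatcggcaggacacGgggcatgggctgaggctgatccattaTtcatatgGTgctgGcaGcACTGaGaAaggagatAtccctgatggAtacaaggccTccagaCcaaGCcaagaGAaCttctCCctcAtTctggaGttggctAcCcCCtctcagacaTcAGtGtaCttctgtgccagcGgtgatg
Trbv13-3: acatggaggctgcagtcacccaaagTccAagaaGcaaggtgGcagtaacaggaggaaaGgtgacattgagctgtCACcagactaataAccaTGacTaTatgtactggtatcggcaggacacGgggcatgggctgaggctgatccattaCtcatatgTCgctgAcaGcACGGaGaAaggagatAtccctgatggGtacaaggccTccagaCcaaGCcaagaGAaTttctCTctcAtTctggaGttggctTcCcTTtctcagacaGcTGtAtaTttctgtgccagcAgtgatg

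In the alpha locus a segment with reads is set beside one whose V exon is duplicated. Trav7-1 (chr14:52655041-52655328, plus strand of chromosome 14) was read in every library. Trav7d-5 (chr14:52836100-52836387, plus strand) had 0 reads in all 7, and its V exon is identical to that of Trav7n-5, which had 0 reads too. Capitals mark the 37 of 288 positions at which Trav7-1 and Trav7d-5 differ.
Trav7-1: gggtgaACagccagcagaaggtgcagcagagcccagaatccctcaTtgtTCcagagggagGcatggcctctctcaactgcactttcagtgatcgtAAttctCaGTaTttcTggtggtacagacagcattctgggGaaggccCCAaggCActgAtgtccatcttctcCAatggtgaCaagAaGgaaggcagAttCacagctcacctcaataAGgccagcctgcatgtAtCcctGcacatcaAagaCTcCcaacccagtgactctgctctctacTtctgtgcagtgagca
Trav7d-5: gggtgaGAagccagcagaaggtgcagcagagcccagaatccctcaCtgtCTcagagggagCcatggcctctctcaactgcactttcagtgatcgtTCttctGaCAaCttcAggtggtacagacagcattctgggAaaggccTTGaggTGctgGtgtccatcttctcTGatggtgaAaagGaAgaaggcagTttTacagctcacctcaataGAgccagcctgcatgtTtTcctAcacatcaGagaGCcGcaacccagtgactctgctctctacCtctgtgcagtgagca

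The 2 loci were covered very differently. All 21 Trbv segments were read in every library, with 12181 to 16217 reads per library in total. For Trav the total was 254 to 454 reads, 23 of 30 segments had a read anywhere and 16 had one in every library. In GENCODE M21, 22 Trbv genes are annotated and 21 of them had a row (Trbv4 had none), whereas 30 of 108 annotated Trav genes had one. None of the 13 Trbv and 20 Trav segments annotated as pseudogenes had a row. Alpha shares below are therefore shares of the reads on 30 Trav segments, not of all alpha chains.

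Per kb of exon, the summed Trbv level was close to that of its constant regions, at 104% to 124% of Trbc1 plus Trbc2 in the untreated libraries. In FcCD70 libraries 1, 2 and 3 it was 113%, 86.1% and 109%. The summed Trav level per kb reached only 8.54% to 13.5% of that of the alpha constant region Trac over the 7 libraries. FcCD70 library 2, where both Trbc genes were highest, had the lowest beta ratio, and the groups overlapped in both ratios.

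Uniqueness of sequence went with the number of reads in the alpha locus. For each segment the share of its 50-base windows that occur in no other annotated gene was computed. The 9 Trav segments with under 5% such windows held 0 to 4 reads over all libraries, and 7 of them held none (Trav11d, Trav7d-5, Trav3d-3, Trav7n-5, Trav9n-2, Trav3n-3 and Trav7-2). The other two were Trav7d-2 with 3 reads and Trav6d-3 with 4. The 13 segments with 5% or more but under 100% held 32 to 294 reads (median 100), and the 8 fully unique ones held 10 to 248 (median 88.5). In 5 Trav segments the V exon was identical to that of another segment. Among Trbv segments 17 were fully unique, and Trbv12-2, Trbv13-2 and Trbv13-3 had at least 98.8% unique windows. The remaining one, Trbv5, had 22.6%, and it overlaps the annotated span of the gene 5830405F06Rik on the same strand. It was the second lowest Trbv segment, with 101 reads. The read length and the treatment of reads that match several genes were not given in the sources used here. Their part in the alpha counts was not tested.

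**Figure D1:**
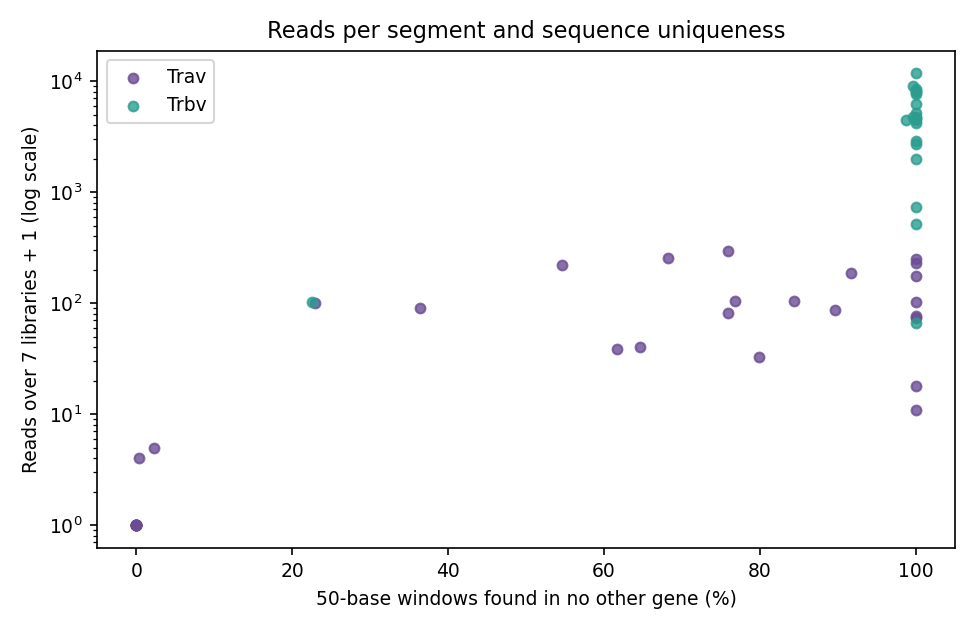
Reads per segment over the 7 libraries plus 1 (y axis, log scale) against the share of the segment's 50-base windows found in no other annotated gene (x axis, percent); each point is 1 of 51 segments, purple for Trav and green for Trbv. Trav segments with under 5% unique windows sit at 0 to 4 reads, and nearly all Trbv segments sit at the right edge.

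Beta chain usage was spread over many segments. Trbv3 had the highest share of Trbv reads in all 7 libraries. In untreated libraries 1 to 4 its share was 11.9%, 12.2%, 11.5% and 11.1%, and in FcCD70 libraries 1 to 3 it was 11.6%, 12.0% and 11.6%. The exact binomial 95% interval, which covers counting error only, ran from 11.3% to 12.5% in untreated library 1. The groups overlapped and their means were 11.7% ± 0.44 (SD, n = 4) and 11.7% ± 0.25 (SD, n = 3).

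Behind Trbv3 came Trbv13-2 (mean share over 7 libraries 8.99%), Trbv19 (8.41%), Trbv16 (8.21%), Trbv15 (7.86%), Trbv2 (7.63%), Trbv1 (6.12%) and Trbv26 (5.07%). Together these 8 segments held 64.0% of Trbv reads. A group of 6 segments followed between 4.18% and 4.73%: Trbv13-3, Trbv13-1, Trbv31, Trbv12-2, Trbv20 and Trbv12-1. Trbv29, Trbv17 and Trbv14 had 2.89%, 2.66% and 1.98%. The lowest were Trbv23 (0.73%), Trbv30 (0.51%), Trbv5 (0.10%) and Trbv21 (0.065%, 65 reads). Neighbours in this order often did not differ beyond their spread: Trbv19 ranged from 7.45% to 9.09%, Trbv16 from 7.58% to 9.15% and Trbv15 from 7.07% to 8.98%.

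A longer exon collects more fragments, so the order was also taken per kb of exon. Trbv13-2 then came first with a per-kb share of 10.6%, followed by Trbv3 with 10.3% and Trbv15 with 8.54%. Trbv19 and Trbv2, whose exons are 566 and 560 bases long, moved down to 5.97% and 5.48%. Of the 8 segments with the highest share, 7 were also among the first 8 per kb. By subgroup, the 3 Trbv13 segments held 17.7% to 19.4% of Trbv reads in each library, more than any single segment.

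Trbv31, the one segment that lies on the minus strand and downstream of the constant regions, had 4.54% (3.998% to 5.20%).

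**Figure D2:**
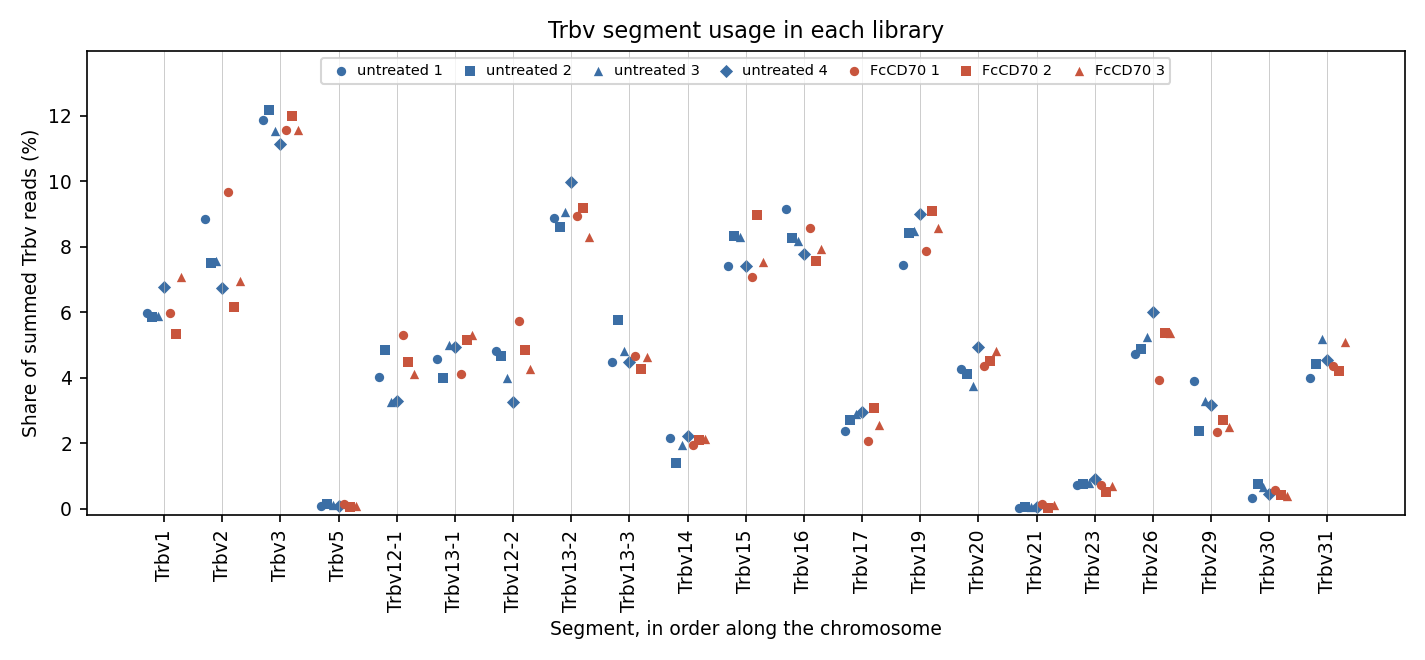
Share of summed Trbv reads (y axis, percent) for the 21 Trbv segments in order along the chromosome (x axis); each point is 1 library, blue for untreated and red for FcCD70, with a marker shape for the replicate number. Trbv3 is highest in all 7 libraries, and the red and blue points overlap for every segment except Trbv23.

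Most Trbv segments varied between libraries by more than read counting gives. The SD over 7 libraries was divided by the SD expected from counting. This ratio had a median of 2.77 over the 17 segments with a mean share of at least 1%. The rarer segments were left out of that median. Trbv3 had the lowest ratio, 1.27, and Trbv2 the highest, 5.55. The share of Trbv2 was 8.85%, 7.49%, 7.56% and 6.74% in untreated libraries 1 to 4 and 9.67%, 6.17% and 6.96% in FcCD70 libraries 1 to 3. Both libraries numbered 1 were thus the highest, and FcCD70 library 2 was the lowest. Trbv12-1, Trbv12-2 and Trbv29 followed with ratios of 4.57, 4.49 and 4.13.

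FcCD70 and untreated libraries did not differ in any V segment past the test threshold. The test took the 36 segments (16 Trav, 20 Trbv) whose normalized count averaged at least 10. Of these limma called 0 at an adjusted p under 0.05, as it did among all 11083 genes tested (0%). At an unadjusted p under 0.05 it took 1 segment, Trav7-1, which was lower, against 1.7% of all genes (1.1% lower and 0.596% higher). EdgeR on the recovered reads called 0 of 37 segments and DESeq2 0 of 44, each with 1 at an unadjusted p under 0.05. No segment had a p under 0.05 in the authors' deposited table, which rests on 8 libraries and not on the 7 used here; the lowest was 0.0585 for Trav7-1. Fitted log2 fold changes lay between -0.58 (Trbv5) and 0.24 (Trbv12-1) for Trbv and between -1.55 (Trav7-1) and 1.61 (Trav13-4-dv7) for Trav. The median was 0.0085 for Trbv and -0.0076 for Trav, beside -0.0035 over all genes tested.

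For the beta chain the intervals were narrow enough to bound the differences. The log2 fold change of Trbv3 was 0.015, with a 95% interval from -0.27 to 0.30 (limma, 3 same-numbered pairs). The widest Trbv interval belonged to Trbv5, from -2.03 to 0.86. For Trav the bounds reached from -2.73 (Trav1) to 3.92 (Trav10n). With 254 to 454 Trav reads per library, single alpha segments were bounded only loosely.

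**Figure D3:**
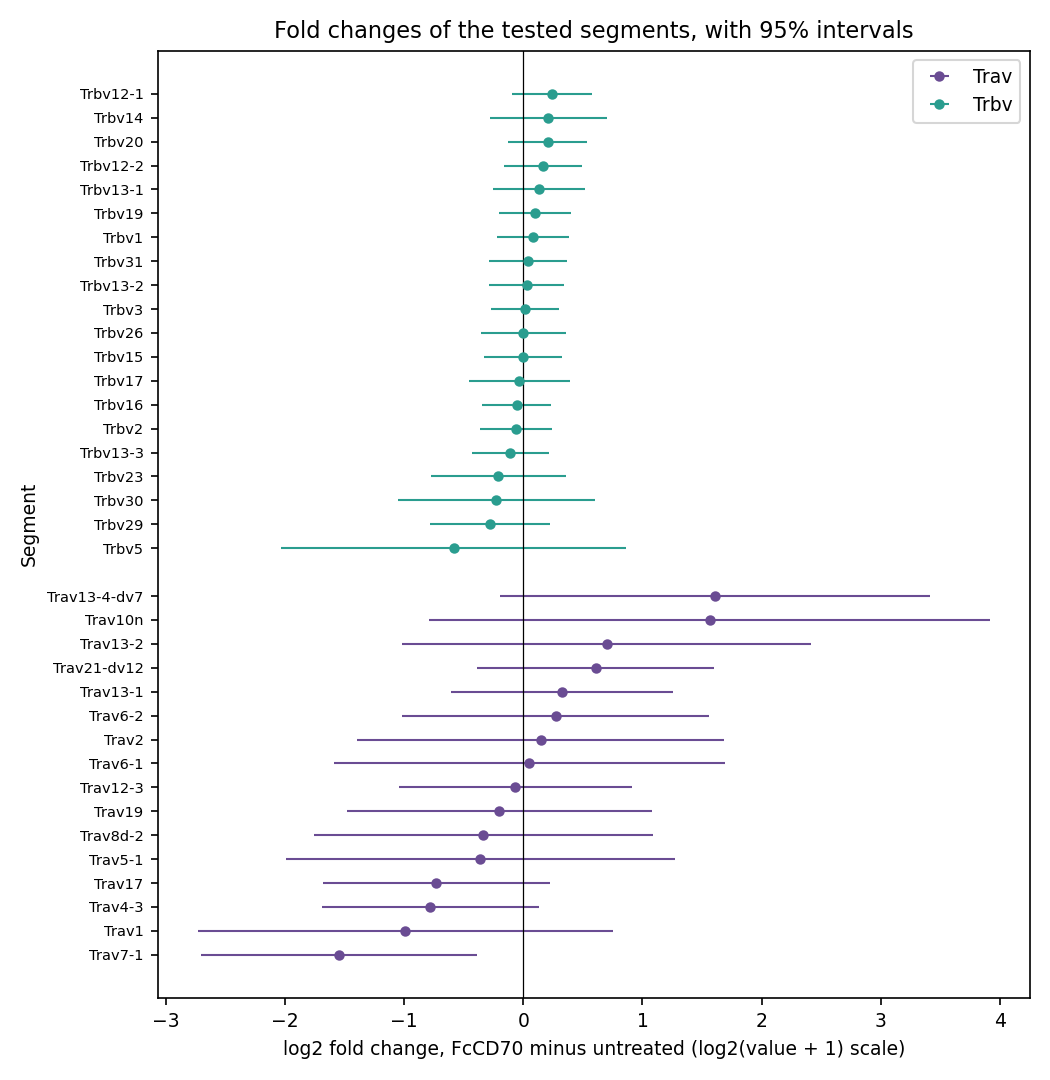
Log2 fold change, FcCD70 minus untreated, on the log2(value + 1) scale (x axis) for the 36 segments tested (y axis), green for Trbv and purple for Trav; points are limma estimates and bars their unadjusted 95% intervals. Every Trbv interval and every Trav interval except that of Trav7-1 includes 0.

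Trbv12-1 and Trbv12-2 had the largest positive differences in beta share, 0.79 and 0.76 percentage points, with Trbv20 next at 0.29. The normalized count of Trbv12-1 was 538, 670, 497 and 453 in untreated libraries 1 to 4 and 708, 712 and 589 in FcCD70 libraries 1 to 3. In all 3 same-numbered pairs the FcCD70 library was higher, although untreated library 2 lay above FcCD70 library 3, so the groups overlapped. Its log2 fold change was 0.24 ± 0.15 (SE, limma, unadjusted p = 0.135). Trbv12-2 was at 646, 648, 609 and 449 in untreated libraries and at 764, 771 and 611 in FcCD70 libraries. Its log2 fold change was 0.17 ± 0.15 (SE, limma, unadjusted p = 0.281). The 2 segments followed each other over the libraries, with untreated library 4 lowest in both and FcCD70 library 2 highest. Together the subgroup took 8.83%, 9.51%, 7.24% and 6.53% of beta reads in untreated libraries and 11.03%, 9.30% and 8.39% in FcCD70 libraries, so in pair 2 its share was slightly lower with FcCD70.

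In the other direction, the share of Trbv29 was 0.66 percentage points lower on average, with Trbv13-3 at -0.36 and Trbv26 at -0.33. The Trbv29 share was 3.89%, 2.36%, 3.30% and 3.15% in untreated libraries and 2.34%, 2.71% and 2.50% in FcCD70 libraries. The groups overlapped through untreated library 2, and the log2 fold change was -0.28 (limma, unadjusted p = 0.242). The rare segment Trbv23 was the one Trbv segment whose share was below every untreated library, with 0.722%, 0.757%, 0.775% and 0.901% untreated and 0.721%, 0.5005% and 0.703% with FcCD70. The gap between untreated and FcCD70 libraries 1 was within counting error, and the normalized counts of Trbv23 overlapped.

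Alpha chain usage, read on far fewer fragments, was led by Trav4-3 (mean share 11.5%), Trav12-3 (10.2%), Trav21-dv12 (10.01%), Trav17 (8.85%), Trav13-1 (8.45%), Trav7-1 (7.16%), Trav19 (6.91%) and Trav8d-2 (4.35%). These 8 segments held 67.4% of Trav reads and were also the first 8 per kb of exon. Another 11 segments had mean shares between 1.20% (Trav3-4) and 3.98% (Trav6-2), 4 had less, and 7 had no read. Segments with dv in their name, such as Trav21-dv12, can also be joined in the delta chain. Trav4-3 was the leading segment in all 4 untreated libraries, though tied in untreated library 3 with Trav12-3 and Trav21-dv12 at 10.4%. Trav21-dv12 led in FcCD70 library 1, and Trav13-1 led in FcCD70 libraries 2 and 3.

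The highest alpha share in any library was that of Trav21-dv12 in FcCD70 library 1, 18.5% (47 of 254 reads, exact binomial 95% interval 13.9% to 23.8%). In the other FcCD70 libraries it was 9.29% and 9.76%, and in untreated libraries 1 to 4 it was 8.93%, 3.61%, 10.4% and 9.60%. One library thus stood above the rest and untreated library 2 below. The normalized count of Trav21-dv12 in FcCD70 library 1, 48.7, was close to the 45.6 of untreated library 3, while the summed Trav level of FcCD70 library 1 was the lowest of all (263).

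**Figure D4:**
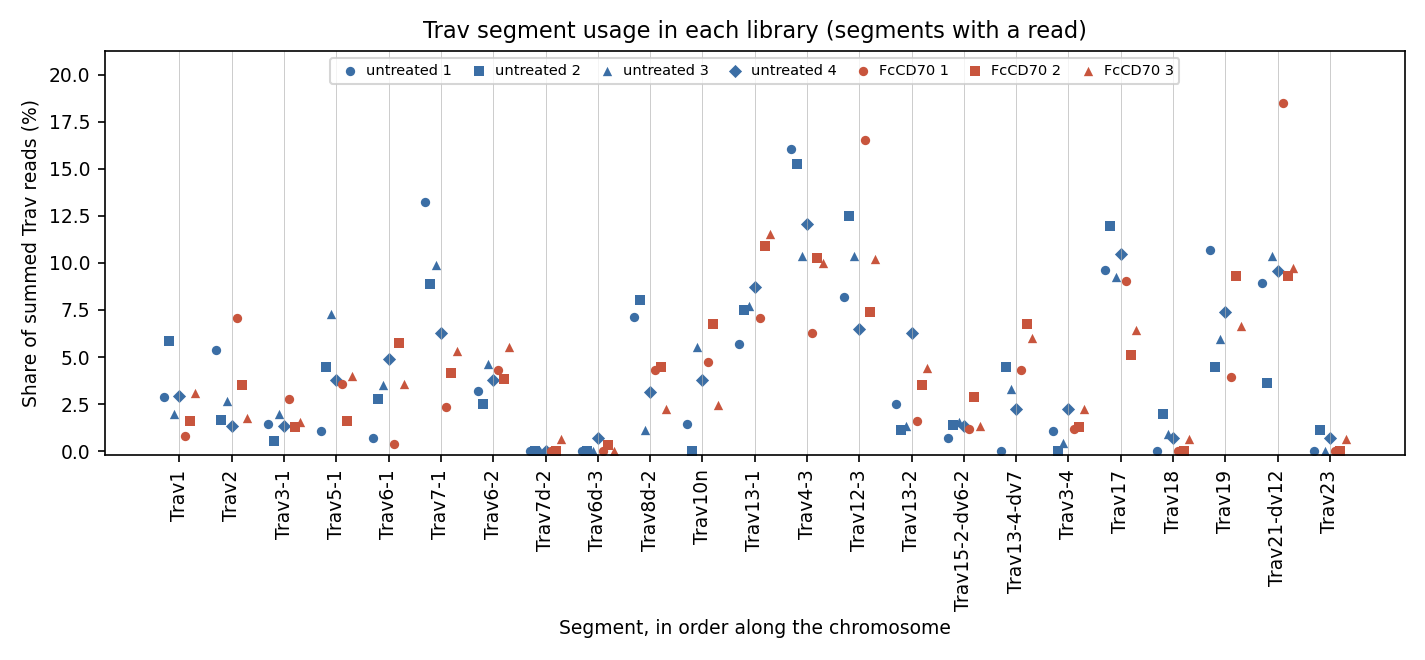
Share of summed Trav reads (y axis, percent) for the 23 Trav segments with a read, in order along the chromosome (x axis); each point is 1 library, blue for untreated and red for FcCD70, with a marker shape for the replicate number. Points of 1 segment spread widely, and FcCD70 points lie below all untreated points for Trav7-1, Trav4-3 and Trav17.

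In 3 of the 36 tested segments, all Trav, every FcCD70 library was below every untreated library, and in 0 every FcCD70 library was above. Among all genes tested these shares were 1.18% and 1.34%, and among the 1238 genes with a mean of 10 to 50, the range of most Trav segments, they were 2.34% and 2.58%. The count of segments below was above these shares, but no test of that excess was made. Trav7-1 was at 40.7, 32.3, 43.7 and 24.4 in untreated libraries and at 6.21, 14.6 and 21.2 in FcCD70 libraries. Its log2 fold change was -1.55 ± 0.51 (SE, 95% interval -2.70 to -0.39, unadjusted p = 0.014, limma adjusted p = 0.9998). Leaving out libraries moved the log2 fold change to between -1.81 and -0.93, the weakest being without FcCD70 library 1 and without pairing. The groups did not overlap, and the counts behind them were small, with 28 to 45 reads in untreated and 6 to 24 in FcCD70 libraries.

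Trav4-3 was at 49.5, 55.5, 45.6 and 47.0 in untreated libraries and at 16.6, 35.9 and 39.7 in FcCD70 libraries (log2 fold change -0.78, limma, unadjusted p = 0.086). Trav17 was at 29.7, 43.4, 40.8 and 40.9 against 23.8, 17.97 and 25.6 (log2 fold change -0.73, limma, unadjusted p = 0.117). Neither passed the test. FcCD70 library 1 was the lowest for Trav4-3 and FcCD70 library 2 for Trav17, while FcCD70 library 3 was the highest FcCD70 library in all 3 segments. Shares of all 3 were below every untreated library too, but the nearest shares lay close together. They were 10.26% and 10.35% for Trav4-3 and 9.06% and 9.25% for Trav17. For Trav7-1 they were 5.32% in FcCD70 library 3 and 6.25% in untreated library 4. The gaps of all 3 segments were within counting error. Leaving out libraries moved the log2 fold change of Trav4-3 to between -1.07 and -0.38, the weakest being without FcCD70 library 1 and without pairing.

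The largest positive differences in alpha share were those of Trav21-dv12 (4.396 points), Trav13-4-dv7 (3.19) and Trav13-1 (2.43). Trav13-4-dv7 was at 0, 16.1, 14.6 and 8.70 in untreated libraries and at 11.4, 23.6 and 23.8 in FcCD70 libraries. It was higher in 3 of 3 pairs but the groups overlapped, and the log2 fold change of 1.61 (limma, unadjusted p = 0.075) leans on the 0 in untreated library 1. A count of 0 there allows a share of up to 1.07% of Trav reads (3 of 280). Trav13-1 was also higher in 3 of 3 pairs, with a log2 fold change of 0.32. Over the tested segments, 3 Trav and 3 Trbv were higher in 3 of 3 pairs and 3 Trav and 1 Trbv lower, against 9.03% and 9.61% of all genes.

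Of the segments of invariant T cells, Trav1 was at 8.80, 21.2, 8.74 and 11.3 in untreated libraries and at 2.07, 5.62 and 12.3 in FcCD70 libraries, 2.72% of Trav reads on average, and the groups overlapped. Its ratio of highest to lowest share, 7.41, rested on 2 to 21 reads per library. Trav11 had no row, and Trav11d had 0 reads in the 7 libraries used here. The authors' deposited values, which rest on 8 libraries, give Trav11d a log2 fold change of 0.71 (DESeq2, unadjusted p = 0.841). They give none for the other segments with no read here. Trav11d has no 50-base window of its own, and its V exon is 99.7% identical to that of Trav11. How reads that match both were counted is not given, so no bound on its share is drawn from its 0 reads. Whether sequence sharing had a part in them was not tested. Zbtb16, the transcription factor of innate-like T cells, was at 0 to 12.4.

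The number of segments in use did not separate the groups. Usage was summarised as the effective number of segments, the exponential of the Shannon entropy of the shares, which equals the number of segments if all are used alike. For Trbv it was 16.1, 16.2, 16.3 and 16.2 in untreated and 16.1, 16.0 and 16.3 in FcCD70 libraries. For Trav it was 12.8, 14.0, 15.3 and 16.8 in untreated and 13.4, 16.2 and 16.9 in FcCD70 libraries, higher with FcCD70 in 3 of 3 pairs although the groups overlapped. With segments pooled by subgroup it was lower with FcCD70 in 3 of 3 pairs. The Trbv values thus differed little between libraries, whereas the Trav values were lowest in the libraries with the fewest Trav reads (280 in untreated library 1 and 254 in FcCD70 library 1). Thinned to 254 reads, 17.98 to 21.7 Trav segments were expected to be seen in each library, and the groups overlapped.

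The summed Trbv level did not separate the groups either. It was 13404, 13864, 15287 and 13808 in untreated and 13355, 15936 and 14301 in FcCD70 libraries, with log2 ratios of -0.01, 0.20 and -0.10 in pairs 1, 2 and 3. The summed Trav level was 308, 363, 441 and 390 in untreated and 263, 350 and 398 in FcCD70 libraries, with log2 ratios of -0.23, -0.05 and -0.15. The alpha sum was thus lower with FcCD70 in 3 of 3 pairs by a mean log2 ratio of -0.14, but the groups overlapped. Without pairing the difference was -0.16, and 0.0035 when FcCD70 library 1 was left out as well.

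Replicate number was examined next, since same-numbered libraries may share an origin. The number term of the same limma fit called 0 of 36 segments and 15 of 11083 genes (0.135%). At an unadjusted p under 0.05 it took 1 segment, Trav6-1 (limma unadjusted p = 0.037, adjusted p = 0.555), against 8.02% of all genes. EdgeR called 0 of 37 segments, with 0 at an unadjusted p under 0.05. Trav6-1 was at 2.20 and 1.04 in the libraries numbered 1, at 10.1 and 20.2 in those numbered 2, at 15.5 and 14.1 in those numbered 3 and at 19.1 in untreated library 4. Both libraries numbered 1 were thus low, with 2 reads and 1 read.

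That count depended on FcCD70 library 2. Without it the number term called 1 segment, Trbv26 (limma adjusted p = 0.0371), and 1828 of 11103 genes (16.5%). Without both libraries numbered 2 it called Trbv26 (limma adjusted p = 0.0216) and 1809 of 11090 genes (16.3%). At an unadjusted p under 0.05 the number term took 9 of 37 segments without FcCD70 library 2 (25.8% of all genes) and 9 of 36 without both libraries numbered 2 (25.5% of all genes), so the segments were close to the background. Trbv26 was at 633 and 523 in the libraries numbered 1, at 801 and 768 in those numbered 3 and at 830 in untreated library 4. The libraries numbered 2 were at 674 (untreated) and 854 (FcCD70). FcCD70 library 2 is the one with the lowest Foxp3 and the highest Trbc levels, whose part in this was not tested.

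Usage as a whole was then compared between libraries by 0.5 times the summed absolute difference in shares, the percentage of reads that would have to change segment to make both libraries alike. For Trbv the mean distance was 4.75% in the 3 same-numbered pairs (4.14% to 5.52%), 6.17% in the 9 pairs within a group (4.49% to 7.99%) and 6.09% in the 9 other pairs (4.25% to 9.14%). Read counting alone gives a mean of about 1.92% to 1.94%. Same-numbered pairs were on average the closest, but the ranges overlapped, and untreated library 4 with FcCD70 library 3 (4.25%) was closer than 2 of the 3 same-numbered pairs. FcCD70 library 1 was on average the farthest from the others, at 6.87%.

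For Trav the order differed. Same-numbered pairs had a mean distance of 28.7% (16.6% to 35.4%), pairs within a group 24.2% and other pairs 25.6%, with about 12.6% to 12.9% from read counting. The closest pair was untreated library 4 with FcCD70 library 3 (13.9%), of different group and number, and the farthest was the same-numbered pair 2 (35.4%). The closest Trav pair was also among the closest for Trbv, whereas the farthest pairs differed between the chains.

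**Figure D5:**
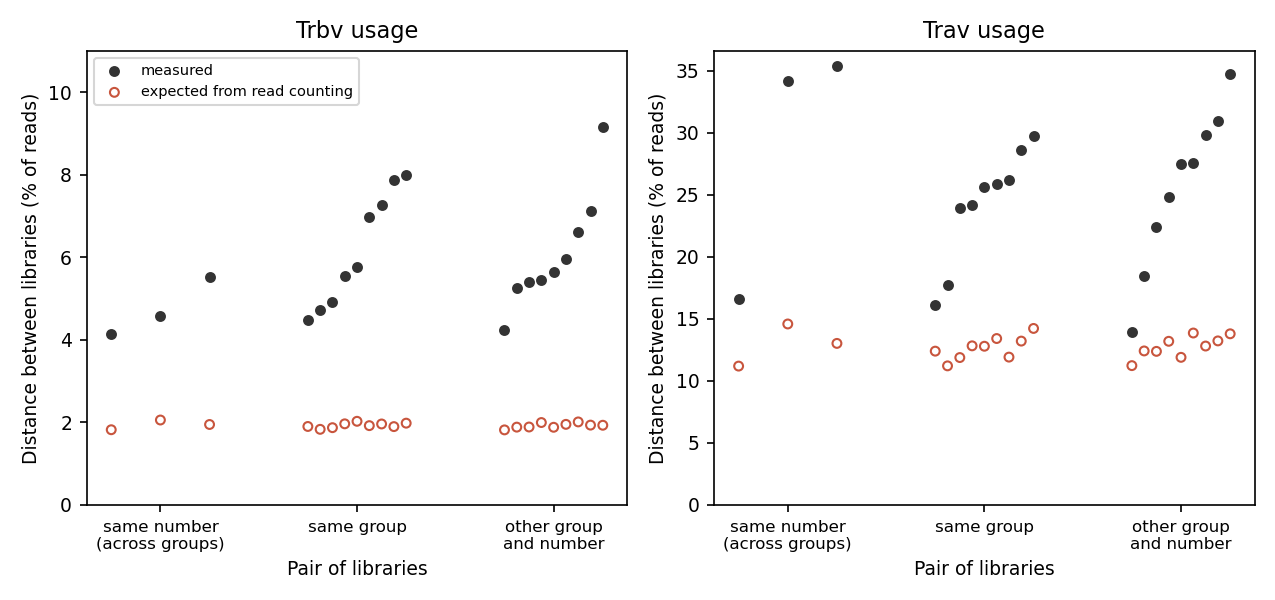
Distance in usage between 2 libraries (y axis, percent of reads) for Trbv (left) and Trav (right), with the 21 pairs split by kind along the x axis; filled points are measured and open points are the mean distance expected from read counting. Every measured distance lies above its counting value, and the 3 kinds of pair overlap.

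Other genes of the receptor were taken from lists. Of the constant regions (4 tested), the CD3 chains and coreceptors (7), the proximal signalling genes (10) and the recombination genes (1), limma called 0 in either direction. Among these, Cd3d of the CD3 complex was highest in FcCD70 library 2, at 21400 against 12918 to 16146, as were both Trbc genes. Themis, which acts in signalling from the receptor, was lower with FcCD70 in 3 of 3 pairs (log2 fold change -0.24, limma, unadjusted p = 0.086). Cd28 was also lower in 3 of 3 pairs, and Cd247 and Lcp2 were higher in 3 of 3. Among all genes tested, 9.61% were lower and 9.03% higher in 3 of 3 pairs. Rag1 and Rag2, the recombinase genes, were at 0 in all 7 libraries, and Dntt, which adds bases at the joins, was at 23.2 to 139. Joining segments were read sparsely: 13 Trbj genes summed to 796 to 1983 and 51 Traj genes to 87.6 to 336.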

How the data were processed

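Messenger RNA of the sorted cells was converted with Illumina's stranded TruSeq kit, per the labels' protocols. The submitters' processing notes list the build GRCm38.p4 and the tools TopHat2, SAMtools, HTSeq and DESeq2 without saying what each did. Aligner settings, the handling of multiply mapped reads, the annotation release and the counting strand were not given in the sources used here.

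The 7 library columns of the deposited table are a signal: the authors' read count of each gene divided by 1 size factor per library. Every value (100%) was within 0.01 of a whole multiple of 1 step, so read counts were recovered and used for shares, exact binomial (Clopper-Pearson) intervals and the floor of 3 reads. These cover counting error only, since reads without molecular identifiers are not independent molecules. The table also holds the authors' log2 fold changes (coded untreated minus FcCD70, sign turned here), a deposited score (the Wald statistic, not used) and deposited p-values from DESeq2, per the file headers. In it 2 genes have no symbol.

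Values were tested as log2(value + 1) with limma 3.58.1 (trend), over genes with a mean of at least 10 in the 7 libraries, with replicate number as a block because the authors' table is named as paired. The contrast rests on 3 pairs with 2 residual degrees of freedom. P-values were adjusted (Benjamini-Hochberg) over all genes tested, threshold 0.05. The plan had allowed for counts; as the values were not, the test planned for a normalized signal was used. Alternatives were edgeR 4.0.16 and DESeq2 1.42.0 on the recovered reads, no block, no filter, a pseudocount of 5, other diversity and distance measures and leaving out libraries. The fitting code was tested on simulated data. Named segments were, per chain, the 8 with the highest mean share, the 3 largest and 3 lowest group differences, the 3 largest ratios of highest to lowest share (mean share of at least 1%), the highest share in 1 library, every segment called, and Trav1, Trav11 and Trav11d. Others were chosen after their values were seen. One gene of the marker lists is not reported here. Members, gene lists and tests were chosen with earlier results of these data known. Exons, windows and coordinates are from GENCODE M21 (GRCm38), and all 51 segments matched it.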

Additional observations from a re-analysis of the deposited data

Results flagged for a closer look

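Within the untreated group, 1 segment had a library far from the other 3. The share of Trbv1 was 6.76% of Trbv reads in untreated library 4, against 5.97%, 5.84% and 5.87% in untreated libraries 1, 2 and 3. FcCD70 library 3 was higher still, at 7.09%. Dixon's ratio was computed for the 4 untreated libraries in 29 measures (shares of the named segments, summed levels and effective numbers), and chance marks about 1 in 20 such groups.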

How the results depend on the processing

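Segments called between FcCD70 and untreated stayed at 0 under every alternative run. Over all genes the count was 0, with 1 gene by DESeq2 and 0 to 20 when libraries were left out (19 without the libraries numbered 2, 20 without FcCD70 library 2 alone, an alternative chosen after seeing the data, and 6 without those numbered 3). By replicate number, segments called ranged from 0 to 1 (Trbv26) and genes from 29 to 1828 against 15, with 0 when no filter on low values was used. These leave-out fits test other sets of genes and have fewer degrees of freedom, and the cause was not tested. The log2 difference of the summed Trav level was -0.14 over the pairs and -0.16 without pairing. Without pairing it was -0.29 without FcCD70 library 3, 0.0035 without FcCD70 library 1 and -0.26 without untreated library 1.

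The replicate block was checked by whether same-numbered libraries deviate together from their group means. The correlations across genes were 0.303, 0.0144 and 0.435 for pairs 1, 2 and 3, and not every pair passed 0.1. Libraries numbered 1 and 3 had their highest correlation with their own number and those numbered 2 did not. With no replicate block, 0 segments and 0 genes were called (limma, 1 and 120 at an unadjusted p under 0.05), and the Trav and Trbv sums differed by log2 values of -0.16 and 0.04. The Trav effective number differed by 0.77 between group means, by 1.45 with the replicate block, by 0.57 with the inverse Simpson index and by -0.53 with segments pooled by subgroup, so its sign depends on the unit counted. These values had no test.

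Fold changes of Trav7-1, Trav17, Trav4-3, Trbv12-1 and Trbv12-2, picked after their values were seen, kept their direction under the alternatives run, but sizes moved when libraries were left out: -1.07 to -0.38 for Trav4-3, -0.94 to -0.48 for Trav17, 0.17 to 0.43 for Trbv12-1 and 0.12 to 0.40 for Trbv12-2. The planned denominator without pseudogenes was not run, since the table gives no biotype and all 51 segments are annotated as genes. Trav depth was 254 to 454 reads per library.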
